A study of Mus musculus with 3 samples.

Results

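The genes described are 54 protein-coding genes of ribosome biogenesis, among them the transcription factor Myc, together with Rn45s, the row of the 45S ribosomal RNA (rRNA) precursor. These 55 rows were selected by gene symbol out of 23282 deposited rows, and Rn45s was kept apart from the protein-coding genes. All 55 passed the filter on low values, which left 12770 rows for testing. The samples were CD4 T cells of C57BL/6 mice, taken from the spleen and lymph nodes, activated with antibodies against CD3 and CD28 at 2 µg/ml and cultured for 72 h. Complete medium (CM) was RPMI with 10% serum, DM was RPMI without amino acids with dialyzed serum, and DM+Met was DM with 30 µM methionine. Each medium had 2 numbered files, here taken as 2 libraries per medium and 6 libraries in all. The study states biologically independent duplicates, but nothing in the labels describes the paired files, so the p-values measure only the spread between these libraries.

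A ribosome is assembled in the nucleolus. RNA polymerase I transcribes the long rRNA precursor, small nucleolar RNAs (snoRNAs) guide its modification, and assembly factors fold, cut and package it into the small and the large subunit. Myc is known to drive many of these genes, and T cells are known to enlarge their nucleoli and to raise ribosome production when they are activated.

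Levels are given as log2(CPM + 1), where CPM is the TMM-scaled read number relative to a common library size. Each mRNA yields a read near its 3′ end in this kind of library, whatever its length. Changes are differences of mean log2 values with their standard error (SE) from a limma fit of the 3 media, and a gene was called when its p, adjusted over all 12770 rows, was below 0.05. Equal amounts of total RNA (500 ng) entered each library. In such bulk samples, fewer cells of a type and less RNA per cell cannot be told apart, and the amount of rRNA per cell was not measured.

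The libraries held 8504929 to 12377440 reads. TMM scaling factors ran from 0.897 to 0.938 in CM and DM and were 1.22 and 1.16 with methionine. The 6 T cell markers summed to 1231 to 1480 CPM in every library. The 4 markers of CD8 T or NK cells summed to 66.5 to 74.2 CPM for CM, 26.3 to 35.9 for DM and 27.1 to 32.2 for DM+Met, with Klrb1c at 0 in CM and Ncr1 at 0 in DM. The 5 myeloid markers summed to 6.15 to 7.18 CPM for CM, 21.5 to 26.4 for DM and 7.20 to 17.8 for DM+Met, none of them at 0 in both libraries of a medium. The 5 B cell markers summed to 54.02 to 80.7 CPM, with Pax5 at 0 throughout. The part of these other cells in the differences from CM was not tested.

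Between DM and CM, few of the 54 protein-coding members passed the test, and they did not move one way. Myc and Ubtf, a factor that binds the rRNA genes for RNA polymerase I, rose by 1.66 and 1.47 log2 units. Npm1, Lyar, Ncl and Rrp1b, which encode nucleolar proteins, fell by 1.72, 1.15, 0.997 and 0.92. The other 48 members were not called, though 5 of them (Noc3l, Utp20, Wdr43, Taf1d and Imp4) were in 1 to 3 of 18 alternative fits. Thus 2 of 54 were called higher, where 7.8% of all rows tested were, and 4 of 54 were called lower, where 9.07% were. The median change of the 54 members was 0.16, beside 0.07 over all rows tested. In 18 members both DM libraries lay above both of CM, and in 11 below them, where 27.9% and 26.2% of all rows did.

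None of the 54 members was called between DM+Met and DM. By limma, 3 of them had an unadjusted p below 0.05 (Ddx21, Nop16 and Wdr43), where 9.69% of all rows did, and 0 were called by limma-voom. Of all rows, 0.0392% were called higher and 0.0157% lower. The members' median change was 0.02, beside 0.01 over all rows. Both DM+Met libraries lay above both DM libraries in 9 members and below them in 11, where 20.4% and 20.6% of all rows did. The 95% interval of the change lay within 1 log2 unit of 0 in 34 of the 54 members, so a larger change was outside the interval for those 34 and inside it for the rest.

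Between DM+Met and CM, Myc and Ubtf were again called higher, and Npm1, Lyar, Ncl, Rrp1b and Taf1d lower. That is 2 and 5 of 54 members, where 6.92% and 8.36% of all rows were called. The members' median change was 0.12, beside 0.06 over all rows. Both DM+Met libraries lay above both CM libraries in 20 members and below them in 13, where 32.2% and 28.7% of all rows did. All 6 genes that had passed between DM and CM passed here too, with the same sign, but both comparisons use the same CM libraries. The balance moved with the scaling where Rn45s was counted in the total. With library totals in place of TMM, 12 members were called higher and 1 lower, where 16.1% and 5.02% of all rows were. The median change was then 0.51, beside 0.41 over all rows. With totals that leave out Rn45s, Myc, Utp20 and Ubtf were called higher and Ncl, Npm1 and Taf1d lower.

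**Figure D1:**
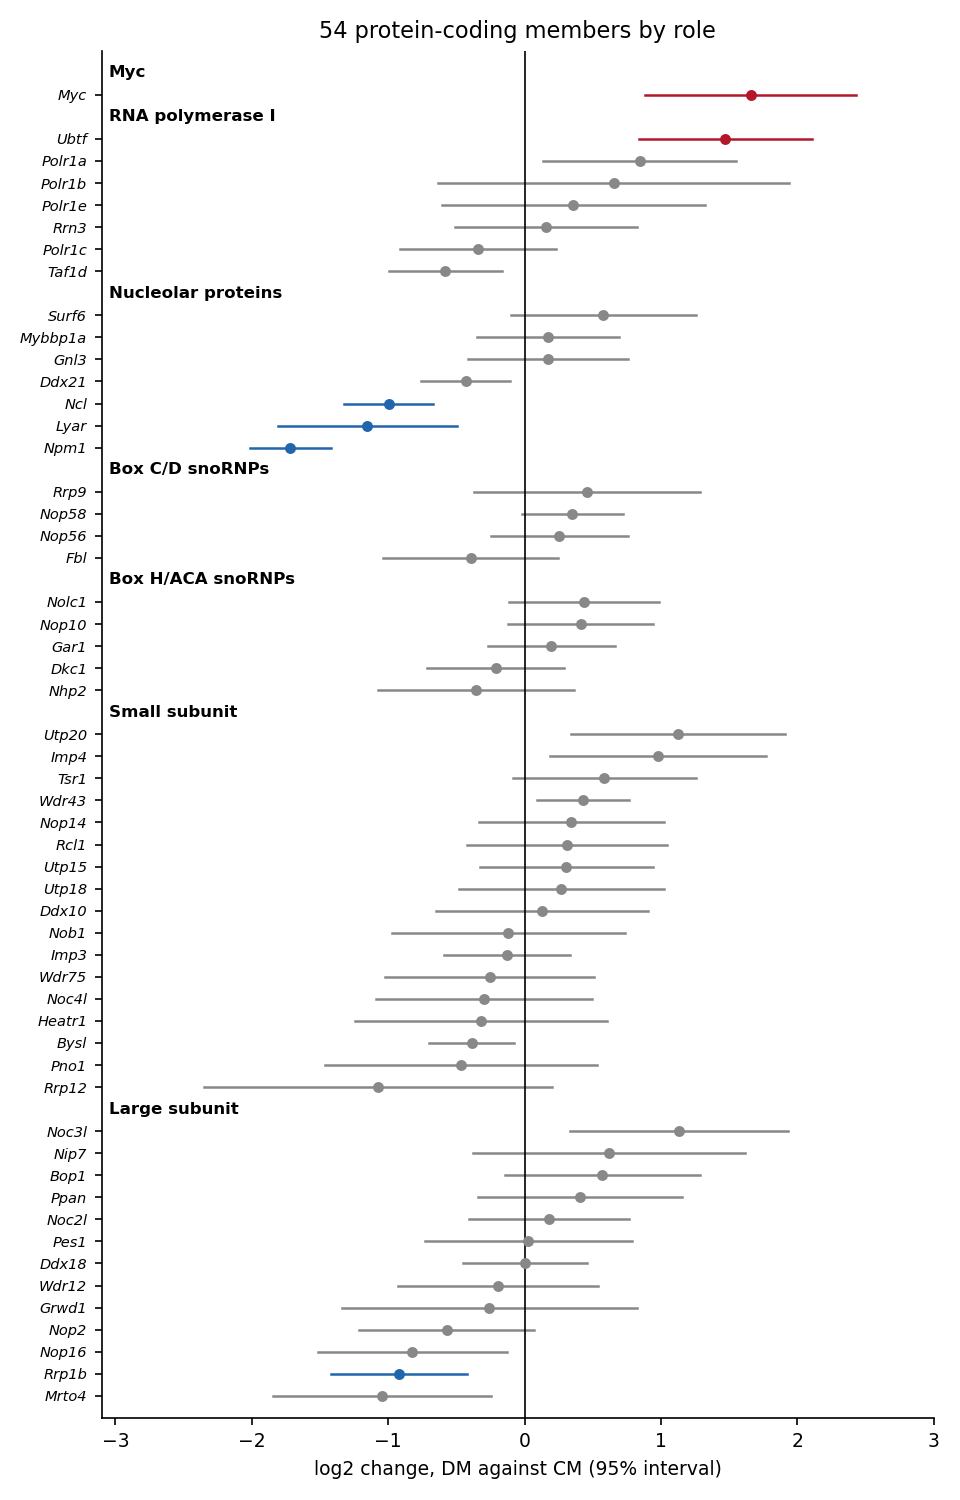
Change between DM and CM of the 54 protein-coding members, grouped by role. The x axis is the log2 change, points are the estimates, lines are their 95% intervals, and red and blue mark genes called higher and lower in DM. The called genes are Myc and Ubtf to the right of 0 and Rrp1b, Ncl, Lyar and Npm1 to its left, and most other intervals span 0.

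Rn45s stands for the precursor that RNA polymerase I makes. It took 3221705 and 2639700 reads in the CM libraries, 3888003 and 4740605 in DM, with 1508559 and 2052319 in DM+Met. As a share of all reads this was 31.98% ± 1.33 for CM, 37.8% ± 0.78 for DM and 17.8% ± 3.25 for DM+Met (SD, n = 2). The 3 media did not overlap in this share, with DM highest and DM+Met lowest, but 2 libraries against 2 cannot go below p = 0.333 in an exact permutation test. Against every 100 reads of the other rows, Rn45s had 47.0 ± 2.87 reads for CM, 60.7 ± 2.01 for DM and 21.7 ± 4.81 for DM+Met.

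On the log2 scale, Rn45s was at 18.49 and 18.37 in CM, 18.60 and 18.68 in DM, with 16.95 and 17.40 in DM+Met. DM against CM gave a change of 0.21 (SE 0.33, adjusted p = 0.698). Between DM+Met and DM it was −1.47 (SE 0.33, adjusted p = 0.231), and between DM+Met and CM −1.26 (SE 0.33, adjusted p = 0.0295). In this fit Rn45s was thus called lower only in DM+Met against CM, and that call held in 5 of 18 alternatives and in 0 of 6 fits that left out 1 library. The change against DM was the larger one, with the smaller unadjusted p by limma (0.00118 beside 0.00325), and it was called in 4 of 18 alternatives. The precursor contains the sequences of the mature rRNAs, so the row cannot separate the precursor from mature rRNA. The library kit primes on poly(A), which rRNA largely lacks, so the share is not a measure of rRNA content. The annotation used here holds no entry of this name, and no position is given.

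**Figure D2:**
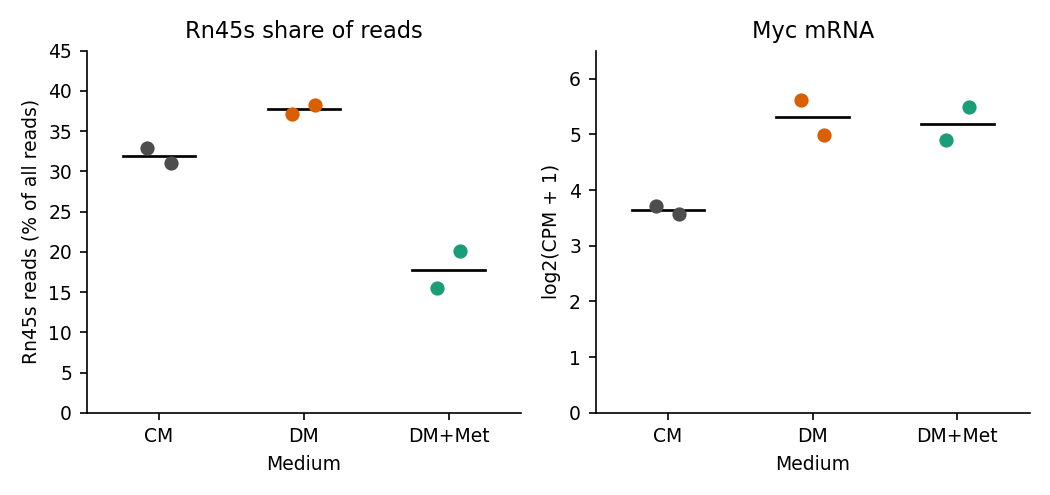
Left, Rn45s reads as a percentage of all reads, and right, Myc mRNA as log2(CPM + 1), by medium. Points are the 2 libraries of a medium and bars their mean. Rn45s lies at 15.47% and 20.06% in DM+Met, below the other 4 libraries, while Myc lies above CM in DM and in DM+Met alike.

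Myc (chr15:61985391-61990374, plus strand, mm10) encodes the transcription factor that pairs with Max. It had 107 and 85 reads in the CM libraries, 469 and 350 in DM, with 342 and 522 in DM+Met. The log2 values were 3.72 and 3.57 in CM, 5.61 and 4.996 in DM, with 4.89 and 5.49 in DM+Met. The 4 libraries without complete medium lay above both CM libraries, and DM and DM+Met overlapped. The change was 1.66 (SE 0.35, adjusted p = 0.0117) between DM and CM, and 1.54 (SE 0.35, adjusted p = 0.0158) between DM+Met and CM. Between DM+Met and DM it was −0.11, with a 95% interval of −0.89 to 0.66 (adjusted p = 0.958), and it was 0.24 with library totals. The call between DM and CM was lost in each of the 6 fits that left out 1 library, with changes of 1.35 to 1.96. Each of those fits left 1 medium with 1 library, so a lost call there does not show a smaller change. The call between DM+Met and CM was kept in 2 of those 6 fits, the ones without a DM library, and lost in the other 4.

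Of 11 other genes of the Myc network tested, such as its partners and antagonists, 1 was called, Mxi1, which encodes a Max-binding antagonist of Myc. Its log2 values were 7.23 and 6.89 in CM, 5.88 and 5.77 in DM, with 5.89 and 5.98 in DM+Met, a change of −1.23 (SE 0.21, adjusted p = 0.00416) between DM and CM. The median change of the 11 was 0.13.

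Of 25 other genes listed as Myc targets, 1 was called higher and 11 lower in DM against CM, with a median change of −0.55. The list was drawn up with earlier results of these data known, so its counts are a description and no independent test. Of all rows, 7.8% were called higher and 9.07% lower. Tfrc, the transferrin receptor, changed by −1.65 (SE 0.19, adjusted p = 6.93e-04). Odc1, the first enzyme of polyamine synthesis, changed by −1.60 (SE 0.20, adjusted p = 0.00115), and Hspe1, a mitochondrial chaperonin, by −1.35 (SE 0.18, adjusted p = 0.00176). The one called higher was Ccnd2, cyclin D2, which changed by 0.95 and is named here after its values were seen. With methionine none of the 25 was called against DM. Odc1 stood at 6.91 and 6.77 in CM, 5.27 and 5.20 in DM, with 6.39 and 6.24 in DM+Met, a change of 1.08 from DM to DM+Met (adjusted p = 0.158). Its 3 media did not overlap. Against CM, DM+Met had 1 of the 25 higher and 9 lower, where 6.92% and 8.36% of all rows were.

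Myc and Max bind the E-box CACGTG, which reads the same on both strands. RefSeq promoter windows (GRCm38.p6), from 250 bases before to 50 bases after the annotated start, were matched to 49 of the 55 members. Rn45s, Myc, Npm1, Fbl, Bop1 and Rrp12 had none. The letters CACGTG occurred in the window of 11 of these 49 members (22.4%), beside 8.09% of 27025 genes and 11.7% of the 9625 tested genes that had a window. In the 250 bases before the start alone they occurred in 4 members (8.16%), beside 6.86% and 9.79%, so the rest had them just after the start. Members with the letters had a median DM against CM change of 0.17 (−0.57 to 1.12), and the 38 without had 0.15 (−1.15 to 1.47). None of the 4 called members with a window (Ncl, Ubtf, Rrp1b and Lyar) had the letters in it. The sites of the 11 members are shown to let their surroundings be compared, 5′ to 3′ on the gene's strand, with the E-box in capitals and up to 12 bases on each side. They are ordered by the gene's change between DM and CM, and were chosen after these values were seen.
Utp20 at chr10:88826765-88826789, minus strand: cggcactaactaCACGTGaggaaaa
Imp4 at chr1:34439696-34439725, plus strand: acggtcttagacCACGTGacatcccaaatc
Tsr1 at chr11:74898092-74898121, plus strand: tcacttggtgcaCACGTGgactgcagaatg
Wdr43 at chr17:71616220-71616249, plus strand: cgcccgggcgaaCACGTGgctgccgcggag
Utp18 at chr11:93885769-93885798, minus strand: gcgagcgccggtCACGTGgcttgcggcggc
Mybbp1a at chr11:72441355-72441376, plus strand: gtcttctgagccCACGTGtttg
Rrn3, first site, at chr16:13780472-13780501, plus strand: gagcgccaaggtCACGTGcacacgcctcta
Rrn3, second site, at chr16:13780639-13780668, plus strand: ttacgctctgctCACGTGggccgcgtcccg
Pes1 at chr11:3963965-3963994, plus strand: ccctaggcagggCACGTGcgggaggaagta
Grwd1 at chr7:45830740-45830767, minus strand: gggccggagtcgCACGTGtgaaaccgga
Pno1 at chr11:17211540-17211564, minus strand: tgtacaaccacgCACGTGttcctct
Nop2 at chr6:125131811-125131840, plus strand: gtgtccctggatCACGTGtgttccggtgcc

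The 7 genes of RNA polymerase I split. Ubtf (chr11:102304560-102319742, minus strand) was at 4.91 and 5.54 in CM, 7.02 and 6.37 in DM, with 6.25 and 6.37 in DM+Met. Every library without complete medium lay above both CM libraries. The change was 1.47 (SE 0.28, adjusted p = 0.00807) between DM and CM and 1.09 (SE 0.28, adjusted p = 0.0305) between DM+Met and CM. The first call held in 1 of 6 fits that left out 1 library, the one without CM library 2, and the second in 0 of 6.

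Taf1d (chr9:15306214-15316991, plus strand) encodes a subunit of the promoter selectivity factor of RNA polymerase I. Its values were 8.55 and 8.13 in CM, 7.66 and 7.86 in DM, with 7.64 and 7.39 in DM+Met. All 4 other libraries were below CM, and both DM+Met libraries were below both DM libraries. It changed by −0.58 (SE 0.19, adjusted p = 0.0578) between DM and CM, and by −0.82 (SE 0.19, adjusted p = 0.0159) between DM+Met and CM. The first was not called, except under the stricter filters of 10 reads in every library (adjusted p = 0.0372) or of a mean log2 level from 2 upwards (adjusted p = 0.0412). The second was called, which held in 10 of 18 alternatives, and the change was −0.43 with library totals. Its exons overlap snoRNAs on the same strand and Cep295 and 4931406C07Rik on the opposite strand.

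The catalytic subunits were not called. Polr1a, the largest subunit, had a change of 0.84 (SE 0.32, adjusted p = 0.0959) between DM and CM, with 4.31 and 4.76 in CM and 5.26 and 5.49 in DM. Polr1b, Polr1c, Polr1e and Rrn3, the factor that brings the polymerase to the promoter, had changes of −0.34 to 0.65. Polr1b was the member with the fewest reads, down to 26 in a library. Among 8 other genes of this machinery, Twistnb, a polymerase I subunit, was higher by 1.17 (SE 0.20, adjusted p = 0.00487) and Polr1d, a subunit shared with RNA polymerase III, changed by −0.60 (SE 0.16, adjusted p = 0.0306). The summed level of the 7 members was 523 ± 42.3 CPM for CM, 489 ± 40.0 for DM and 406 ± 5.55 for DM+Met (SD, n = 2). Taf1d had the highest mean log2 level of the 7 (7.87) and weighs most in this sum. Gene by gene, 5 of the 7 changes between DM and CM were above 0, with a median of 0.36. Between DM+Met and CM 4 of the 7 were above 0, with a median of 0.18.

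Among the 7 nucleolar proteins, 3 were called lower in DM and 0 higher, where 9.07% and 7.8% of all rows tested were. The 3 include Ncl and Npm1, the members with the most reads. Npm1 (chr11:33152287-33163206, minus strand) encodes nucleophosmin, an abundant histone and ribosome chaperone of the nucleolus. It had 12291 and 10922 reads in the CM libraries, 3973 and 5034 in DM, with 5637 and 5230 in DM+Met. The log2 values were 10.45 and 10.45 in CM, 8.67 and 8.80 in DM, with 8.89 and 8.78 in DM+Met. The CM libraries were nearly equal, and the other 4 lay more than 1 log2 unit lower. The change was −1.72 (SE 0.13, adjusted p = 9.73e-05) between DM and CM and −1.62 (SE 0.13, adjusted p = 1.11e-04) between DM+Met and CM. Both calls held in all 18 alternatives. Between DM+Met and DM the change was 0.10 (SE 0.13, adjusted p = 0.875). Npm1 has processed copies elsewhere in the mouse genome, and how the counting treated reads that match several places is not given in the sources used here.

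Ncl (chr1:86344719-86359400, minus strand) encodes nucleolin, which binds the nascent precursor. It had 19589 and 15928 reads in the CM libraries, 9470 and 13386 in DM, with 13926 and 14671 in DM+Met. The log2 values were 11.12 and 10.995 in CM, 9.92 and 10.21 in DM, with 10.19 and 10.27 in DM+Met. CM was above the other media without overlap, and DM and DM+Met overlapped. The change was −0.997 (SE 0.15, adjusted p = 0.00231) between DM and CM, a call that held in 5 of 6 fits without 1 library and was lost without CM library 1 (−0.93). Between DM+Met and CM it was −0.83 (SE 0.15, adjusted p = 0.00478), and −0.44 with library totals, a call that held in 12 of 18 alternatives. Exons of Ncl overlap snoRNAs on the same strand.

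Lyar (chr5:38220470-38234306, plus strand), a zinc-finger protein of the nucleolus, was at 7.02 and 6.70 in CM, 5.26 and 6.16 in DM, with 6.02 and 5.74 in DM+Met. CM was again highest, and the DM libraries lay on either side of both DM+Met libraries. DM against CM gave −1.15 (SE 0.29, adjusted p = 0.0261), a call that held in 10 of 18 alternatives. Among the 6 fits without 1 library it was kept in the one without DM library 2, and the change was −0.71 without DM library 1. Between DM+Met and CM it was −0.98 (SE 0.29, adjusted p = 0.0499), a call that held in 8 of 18 alternatives.

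The other 4 nucleolar proteins were not called. Ddx21, an RNA helicase of the nucleolus, had a change of −0.43 (SE 0.15, adjusted p = 0.072) between DM and CM. With methionine its change was 0.39 (SE 0.15, adjusted p = 0.435), from 8.09 and 8.32 in DM to 8.53 and 8.67 in DM+Met. Surf6, Mybbp1a and Gnl3, which encodes nucleostemin, had DM against CM changes of 0.58, 0.17 and 0.17.

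Ncl and Npm1 held a large part of the members' reads. Of the reads outside Rn45s, the 54 members took 0.918% ± 0.0398 for CM, 0.715% ± 0.0411 for DM and 0.723% ± 0.00884 for DM+Met (SD, n = 2). Ncl and Npm1 together took 0.472%, 0.223% and 0.240%. The other 52 members took 0.446% ± 0.0202, 0.492% ± 0.0154 and 0.483% ± 0.00455. The summed share of the 54 was thus lower in DM than in CM, while that of the 52 was not, which is a description over 2 libraries per medium with no test. Ncl and Npm1 held 51.4% of the members' reads for CM, 31.1% for DM and 33.2% for DM+Met.

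**Figure D3:**
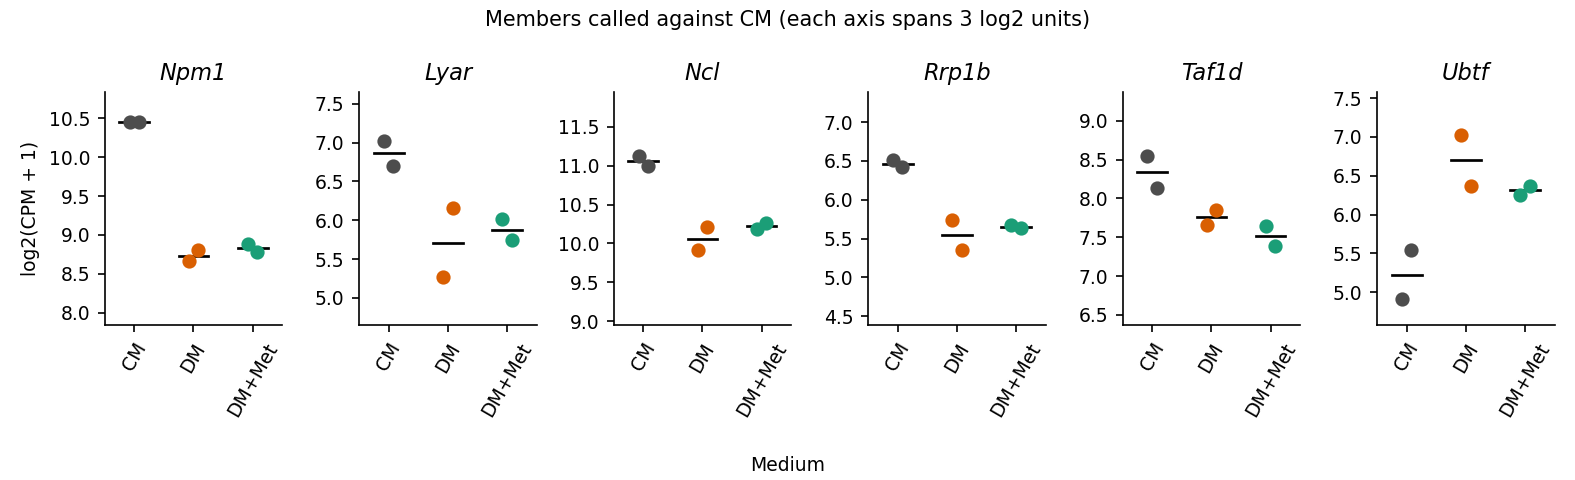
Members other than Myc called against CM, as log2(CPM + 1) by medium. Points are the 2 libraries of a medium, bars their mean, and each y axis spans 3 log2 units around the gene's own mean. CM is highest for Npm1, Lyar, Ncl, Rrp1b and Taf1d and lowest for Ubtf, and no CM point overlaps those of the other media.

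The snoRNA-protein particles that modify rRNA held no called member in the fit used here. With library totals Nop56, Nop58, Rrp9, Nop10 and Nolc1 were called higher in DM+Met than in CM, as was Nolc1 without CM library 2, and Fbl was called lower there under both stricter filters. In the box C/D particles, which methylate ribose, Nop58, a core protein, had the highest level. Its log2 values were 6.82 and 6.92 in CM, 7.13 and 7.30 in DM, with 7.32 and 7.26 in DM+Met. Every library without complete medium was above CM, with a change of 0.35 (SE 0.17, adjusted p = 0.175) between DM and CM. Nop56, the other core scaffold, and Rrp9, of the U3 particle, had changes of 0.26 and 0.46. Fbl, fibrillarin, the methyltransferase itself, had −0.40 (SE 0.29, adjusted p = 0.379) in DM and −0.89 (SE 0.29, adjusted p = 0.066) in DM+Met against CM. Fbl was the single one of the 4 with both DM+Met libraries below CM.

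In the box H/ACA particles, which convert uridine to pseudouridine, Nop10 had the highest level. It was at 7.63 and 6.93 in CM, 7.90 and 7.48 in DM, with 7.60 and 7.71 in DM+Met, with overlap between CM and both other media. Its change was 0.41 (SE 0.24, adjusted p = 0.263) between DM and CM. Dkc1, the pseudouridine synthase, had −0.21, and Nhp2, Gar1 and the chaperone Nolc1 had −0.36, 0.20 and 0.44. The 9 rRNA methyltransferases that are not members had 1 call, Ftsj3, higher by 0.64 (SE 0.19, adjusted p = 0.0436). In 11 assembly factors of snoRNA particles, Znhit3 was lower with a change of −2.08 (SE 0.56, adjusted p = 0.0313), where CM had 120 and 126 reads and DM 15 and 52.

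None of the 17 small-subunit members was called in the fit used here, but 6 were in some alternatives. Between DM and CM these were Utp20 in 3 of 18, and Wdr43 and Imp4 in 1 each. In DM+Met against CM they were Utp20 in 5, Bysl in 3 and Imp4 in 2, while Nop14 and Tsr1 were called with library totals alone. Bysl (chr17:47599331-47611492, minus strand), a late factor of the small subunit, had the highest level. Its log2 values were 8.35 and 8.34 in CM, 7.98 and 7.94 in DM, with 7.91 and 7.92 in DM+Met. The libraries of each medium lay close together and those of CM were highest, yet the change of −0.39 (SE 0.14, adjusted p = 0.0863) was not called. Exons of Bysl overlap those of Ccnd3 on the opposite strand, and the strand setting of the counting is not given in the sources used here, so reads of the pair cannot be told apart.

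The ends of the small-subunit range, named after their values were seen, were Utp20 and Rrp12. Utp20, of the small-subunit processome, had a change of 1.12 (SE 0.35, adjusted p = 0.0548). CM had 86 and 122 of its reads, DM 247 and 357, and DM+Met 384 and 309. Rrp12 had −1.08 (SE 0.57, adjusted p = 0.225), where the CM libraries had 183 and 57 reads. Imp4, a U3 particle protein, had 0.98 (SE 0.35, adjusted p = 0.086). Wdr43, a processome subunit, had 0.43 (SE 0.15, adjusted p = 0.0822) in DM against CM and −0.38 (SE 0.15, adjusted p = 0.456) with methionine. Nob1, the nuclease that cuts the 3′ end of 18S rRNA, had −0.12 (SE 0.38, adjusted p = 0.866), with 4.36 and 4.26 in CM and 3.75 and 4.64 in DM, where the DM libraries lay on either side of CM. Heatr1, a processome scaffold, showed the same spread, with 4.90 and 5.19 in CM and 4.09 and 5.36 in DM. Imp3, the partner of Imp4 in the U3 particle, had −0.13 (SE 0.21, adjusted p = 0.714). Of the 17 members, 9 had DM libraries that overlapped those of CM, where 45.9% of all rows did.

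Of 29 other small-subunit factors, 1 was called in DM, Krr1, of the processome, which was higher by 0.72 (SE 0.19, adjusted p = 0.032). Their median change was −0.08. The summed level of the 17 members was 1000 ± 35 CPM for CM, 1047 ± 114 for DM and 1016 ± 22.7 for DM+Met.

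Of the 13 large-subunit members, 1 was called in the fit used here. Rrp1b (chr17:32036100-32062865, plus strand), a nucleolar factor of large-subunit processing, was at 6.51 and 6.42 in CM, 5.73 and 5.35 in DM, with 5.68 and 5.63 in DM+Met. CM was above the other media without overlap. The change was −0.92 (SE 0.22, adjusted p = 0.0214) between DM and CM and −0.81 (SE 0.22, adjusted p = 0.0371) between DM+Met and CM. The first call held in 1 of 6 fits without 1 library, the one without DM library 1. Its exons overlap those of Hsf2bp on the opposite strand.

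Noc2l (chr4:156236010-156247616, plus strand), which carries pre-ribosomes towards the nucleoplasm, was at 6.48 and 6.06 in CM, 6.61 and 6.29 in DM, with 6.10 and 6.73 in DM+Met. The media overlapped, and its change of 0.18 (SE 0.26, adjusted p = 0.679) turned to −0.03 without CM library 2. Its exons overlap those of Samd11 on the opposite strand. Pes1, Bop1 and Wdr12, which form 1 complex, had changes of 0.03, 0.57 and −0.19. The ends of the range were Noc3l with 1.13 (SE 0.36, adjusted p = 0.0573) and Mrto4 with −1.05 (SE 0.36, adjusted p = 0.0735), both named after their values were seen. Noc3l was called higher in DM in 3 of 18 alternatives, under both stricter filters and with totals that leave out Rn45s. Nop2, a methyltransferase of 28S rRNA, had −0.57 (SE 0.29, adjusted p = 0.202), with 5.24 and 5.16 in CM, 4.76 and 4.495 in DM, then 4.84 and 5.26 in DM+Met. Both DM libraries were below CM, and DM+Met overlapped CM. Ddx18, an RNA helicase of the large subunit, had 0.002 (SE 0.20), with a 95% interval of −0.45 to 0.46, the smallest difference of the 54 members. Nip7 had 0.62 (SE 0.45, adjusted p = 0.372), where 4.92 and 3.54 in the CM libraries spanned both DM libraries. Nop16 had the largest difference with methionine of the 54 members, 0.75 (SE 0.31, adjusted p = 0.476), from 4.02 and 4.22 in DM to 4.97 and 4.77 in DM+Met. In CM it was at 5.12 and 4.76. The summed level of the 13 members was 486 ± 50.9 CPM for CM, 440 ± 27.0 for DM and 458 ± 22.6 for DM+Met.

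Among 40 other large-subunit factors, Mdn1, a large ATPase that strips factors from the pre-ribosome, was called, higher by 1.56 (SE 0.21, adjusted p = 0.00151) with 5.98 and 5.59 in CM and 7.17 and 7.51 in DM.

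**Figure D4:**
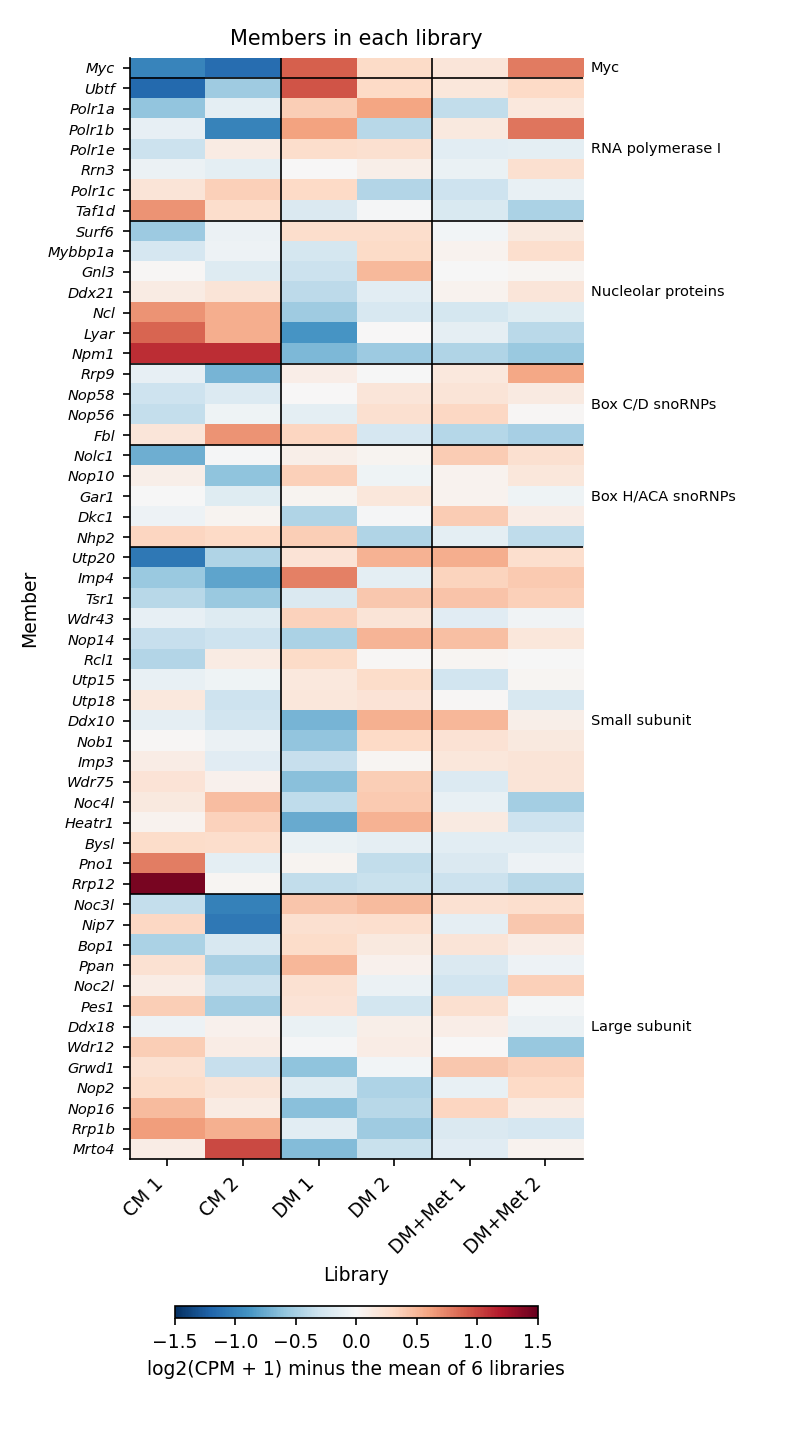
Each member (rows, grouped by role) in each library (columns), as log2(CPM + 1) minus the gene's mean over the 6 libraries. Red is above and blue below that mean. The CM columns part from the rest for Npm1, Ncl, Lyar and Rrp1b (red in CM) and for Myc and Ubtf (blue in CM), while many other rows vary as much within a medium as between media.

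The 111 other biogenesis genes, which are those of the lists above and 14 of the exosome, gave 4 called higher and 4 lower in DM, with a median change of 0.02. Over all rows tested, 7.8% were called higher and 9.07% lower. Of the exosome, which trims rRNA ends, Mphosph6 and Exosc8 were called lower, with changes of −1.91 (SE 0.26, adjusted p = 0.00159) and −0.94 (SE 0.17, adjusted p = 0.00603). With methionine 0 of the 111 were called by limma, where 0.0392% of all rows were called higher and 0.0157% lower. An unadjusted p below 0.05 was seen in 7 of the 111, where 9.69% of all rows had one. DM+Met against CM gave 4 higher and 5 lower, where 6.92% and 8.36% of all rows were.

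The listed host genes of snoRNAs gave calls in 1 direction. Of 10 tested, 6 were called lower in DM and 0 higher, with a median change of −0.84. Over all rows tested, 9.07% were called lower and 7.8% higher. This list, too, was drawn up with earlier results of these data known. It leaves out members whose exons overlap snoRNAs on the same strand. Among those, Ncl and Taf1d had changes of −0.997 and −0.58, and Nop56, Nop58, Gnl3 and Ppan had 0.26, 0.35, 0.17 and 0.41. Only Ncl of these was called. Snhg5 was at 6.395 and 6.34 in CM, 4.21 and 4.95 in DM, with 5.46 and 5.54 in DM+Met, a change of −1.79 (SE 0.28, adjusted p = 0.00328). Snhg1 was at 7.75 and 7.44 in CM, 5.48 and 6.61 in DM, with 6.05 and 5.65 in DM+Met, a change of −1.55 (SE 0.33, adjusted p = 0.0128). Snhg6 had 1166 and 352 reads in the CM libraries against 289 and 320 in DM, so that 1 CM library carried much of its change of −1.40 (SE 0.42, adjusted p = 0.0492). With methionine none of the 10 was called against DM, and Snhg5, whose DM+Met libraries lay between those of CM and DM, had a change of 0.92. DM+Met against CM had 4 called lower, where 8.36% of all rows were. The 14 RNA genes of the pathway, such as RNA components, had 3 rows that could be tested and 0 calls.

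Beside these, 27 of 79 genes of cytosolic ribosomal proteins were called lower in DM and 0 higher, with a median change of −0.37 and 65 of 79 changes below 0. With methionine 2 of them were called higher against DM, where 0.0392% of all rows were. Of 36 genes of DNA replication and S phase, 26 were called lower in DM and 1 higher, with a median change of −1.33. Over all rows tested, 9.07% were called lower and 7.8% higher. With methionine 0 of the 36 were called by limma. The 54 biogenesis members, with 4 called lower and a median of 0.16, are set beside these lists as counts, and the difference between the lists was not tested.

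**Figure D5:**
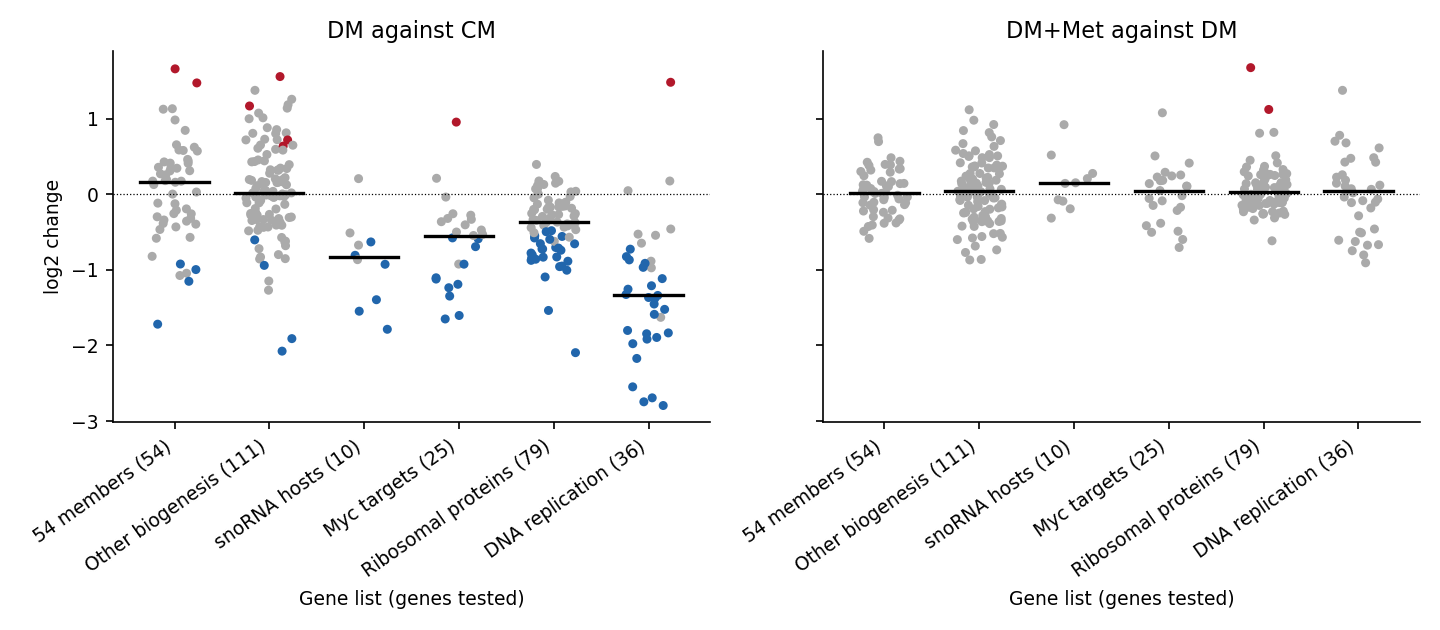
Log2 change of each gene (points) by list, for DM against CM on the left and DM+Met against DM on the right, with the number of genes tested in brackets. Bars are medians, and red and blue mark genes called higher and lower. The medians of DM against CM are 0.16 for the 54 members, −0.37 for ribosomal proteins and −1.33 for DNA replication, and with methionine the medians of the lists shown lie between 0.02 and 0.15.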

How the data were processed

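The RNA of each medium had been read with a 3′-end library kit. The submitters' processing notes name Bowtie2, bedtools and mm10, with no versions or roles, and the study's figure legends name TMM and CPM normalization. The log2 values deposited by the authors were log2(CPM + 1), as their equal steps show, with at least 99.776% of values up to 300 reads within 0.1 of a whole read. The reads were recovered from these steps. Rows with 0.946 CPM (10 reads at the median effective depth) in 2 libraries and 15 reads in all were tested in R 4.3.3 with limma 3.58.1 (eBayes with trend after lmFit, the 3 media in 1 fit, two-sided), with Benjamini-Hochberg adjustment over 12770 rows and a threshold of 0.05. On simulated data the script recovered the changed genes. How well it would recover differences as small as those of most members was not tested. Libraries of 1 medium differed by a chi-square of 18.2 to 35.9 per degree of freedom, which is more than the sampling noise. Of the rows, 44 repeat a symbol. The members and the gene lists were chosen with earlier results of these data known. The rule for naming took Rn45s, Myc, up to 4 called members per role and the one with the highest mean level. From each other list it took up to 3 called genes. Members named beyond this rule, Nop16 and Ddx18 among them, were named with their values known. Positions are from GENCODE M21 on mm10. Exons of 24 members overlap those of another gene. The alternatives were library totals with and without Rn45s, other filters and pseudocounts, limma-voom, no trend, a robust prior, only the 2 media compared, the file number as a block, and leaving out each library. Reads carry no molecular identifiers, so the read numbers do not give the number of molecules counted.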

Additional observations from a re-analysis of the deposited data

How the results depend on the processing

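The count of called members in DM against CM was 6, and it was 9 with totals without Rn45s (5 higher, 4 lower) and under filters of 10 reads in each library or of a mean log2 value from 2 upwards (4 higher, 5 lower in each). It was 2 without the intensity trend and 2 with only the 2 media compared, and it was also lower in each fit that left out 1 library. Calls over all 12770 rows fell too, from 2154 to 1329 without the trend and to 795 with only the 2 media. In DM+Met against CM it was 7, and it was 13 with library totals, 4 with no filter, 1 without the trend and 1 to 7 when 1 library was left out. Npm1 was called against CM in each of these fits in both comparisons. Myc in DM against CM was not called with only the 2 media (1.66) nor without 1 library (1.35 to 1.96). In DM+Met against CM it was not called without the trend (1.54) nor in 4 of 6 fits without 1 library (1.24 to 1.84). In DM+Met against DM it was 0.24 with library totals and −0.42 to 0.19 without 1 library. The members' median moved with library totals to 0.38 in DM+Met against DM (all rows 0.34) and to 0.51 in DM+Met against CM (all rows 0.41). Rn45s in DM+Met against DM (−1.47) was called under filters of 10 reads in each library or of a mean log2 value from 2 upwards, under limma-voom and under a robust prior. In DM+Met against CM it was not called with library totals (−0.86), totals without Rn45s (−1.13), no filter, a pseudocount of 0.1, no trend, only the 2 media or the block (−1.26 in each), nor without 1 library (−1.48 to −1.03).

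Signs turned in DM+Met against DM with library totals for Taf1d (0.12), Nop10 (0.33), Bysl (0.32) and Noc2l (0.32). Without 1 library they turned there for Lyar (−0.28 to 0.62), Nop58 (−0.0115 to 0.16), Nop10 (−0.25 to 0.17), Noc2l (−0.35 to 0.28) and Rrp1b (−0.081 to 0.30), and for Noc2l against CM (−0.0345 to 0.39 in DM, −0.18 to 0.46 in DM+Met). No cause was tested. The file numbers did not pair the libraries (correlations of their deviations from −0.0303 to 0.00476), and as a block they left 6 members called in DM against CM. With 2 libraries per medium, median SE over the members was 0.31 log2 units.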

Other observations

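The 2 libraries of a medium were not equally alike. Over the 54 protein-coding members the median absolute gap between them was 0.28 log2 units for CM, 0.31 for DM and 0.20 for DM+Met, beside 0.39, 0.47 and 0.26 over all rows tested. A gap above 0.5 was seen in 15, 18 and 6 of the 54 members (27.8%, 33.3% and 11.1%), beside 41.6%, 47.5% and 25.7% of all rows tested. In DM, 11 members were higher by that margin in library 2, among them Ddx10, Heatr1, Nop14, Gnl3 and Lyar, and 7 in library 1, among them Myc, Ubtf, Imp4 and Fbl.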
